A study of Homo sapiens with 6 samples.

Results

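The 10 genes described here encode the light-signalling cascade of the cone photoreceptor: the opsin OPN1SW, the transducin subunits GNAT2, GNB3 and GNGT2, the phosphodiesterase subunits PDE6C and PDE6H, the channel subunits CNGA3 and CNGB3, the arrestin ARR3 and the regulator RGS9. They were chosen by symbol, and each was found once among the 63140 gene IDs of the count table. Of these 10 genes, 9 had counts in at least 1 library and 8 had enough counts to be tested.

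In a cone, light activates an opsin, which switches on the G protein transducin. Transducin relieves the inhibition of the phosphodiesterase PDE6, cyclic GMP falls, and cyclic nucleotide-gated channels in the outer segment close. Arrestin then quenches the opsin, and RGS9 speeds the return of transducin to its inactive state. Retinoblastoma is a childhood tumour of the retina with features of cone precursors, and cells of this tumour are known to carry RNA of several photoreceptor genes.

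RNA-seq libraries were made from total RNA of Y79 cells, an established human retinoblastoma line labelled as wild type, cultured in RPMI 1640 with fetal bovine serum and penicillin-streptomycin. The controls were 3 libraries of cells in this complete medium. The treated group was 3 libraries of cells in the same medium with 2 U/mL of rhArg (recombinant human arginase), which hydrolyses the arginine of the medium. Treatment lasted 72 h. The comparison asks how gene expression differed when arginine was depleted. All libraries came from 1 cell line, and nothing in the labels names separate cultures within a group. The p-values therefore reflect library-to-library variation that may be purely technical. Library totals lay between 12580622 and 13747351 counts.

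Under rhArg, 6 of the 10 cone genes fell, 2 rose and 2 could not be tested. PDE6C, counted among the 6, passed the filter on low counts only through the controls and was not called by DESeq2, which left 5. Those 5 were the transducin subunits GNAT2, which fell by 0.97 on the log2 scale, GNB3, which fell by 0.36, and GNGT2, which fell by 0.54, the phosphodiesterase subunit PDE6H, which fell by 1.41, and the cone arrestin ARR3, which fell by 0.91. The channel subunit CNGA3 rose 2.10-fold and the shut-off regulator RGS9 rose 2.54-fold. The opsin OPN1SW had 0 counts in each of the 6 libraries. A gene was said to rise or fall at an adjusted p under 0.05 in edgeR's quasi-likelihood test (Benjamini-Hochberg over the 15221 genes tested). This background was wide, since 30.7% of the genes tested rose and 30.9% fell, together 61.7%. The groups did not overlap in normalized counts for any of the 8 cone genes tested, against 66.5% of the genes tested. The median log2 fold change was -0.73 over those 8 genes and -0.005 over the genes tested, as a description of a list that was not tested as a whole. Both the overlap count and this median include PDE6C, and a gene that passes the filter through the controls alone has to differ.

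With a further limit of 1 on the absolute log2 fold change, 4 of the 10 cone genes passed, CNGA3 and RGS9 upwards and PDE6H and PDE6C downwards, where 23.4% of the genes tested passed the same limits (1881 upwards and 1677 downwards). This count includes PDE6C, which passed the filter on low counts only through the controls and was not called by DESeq2. When the test itself was set at that size of change (edgeR's glmTreat), 0 of the 8 genes passed at an adjusted p under 0.05, and 2 of them, PDE6H and RGS9, passed at an unadjusted p under 0.05.

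**Figure D1:**
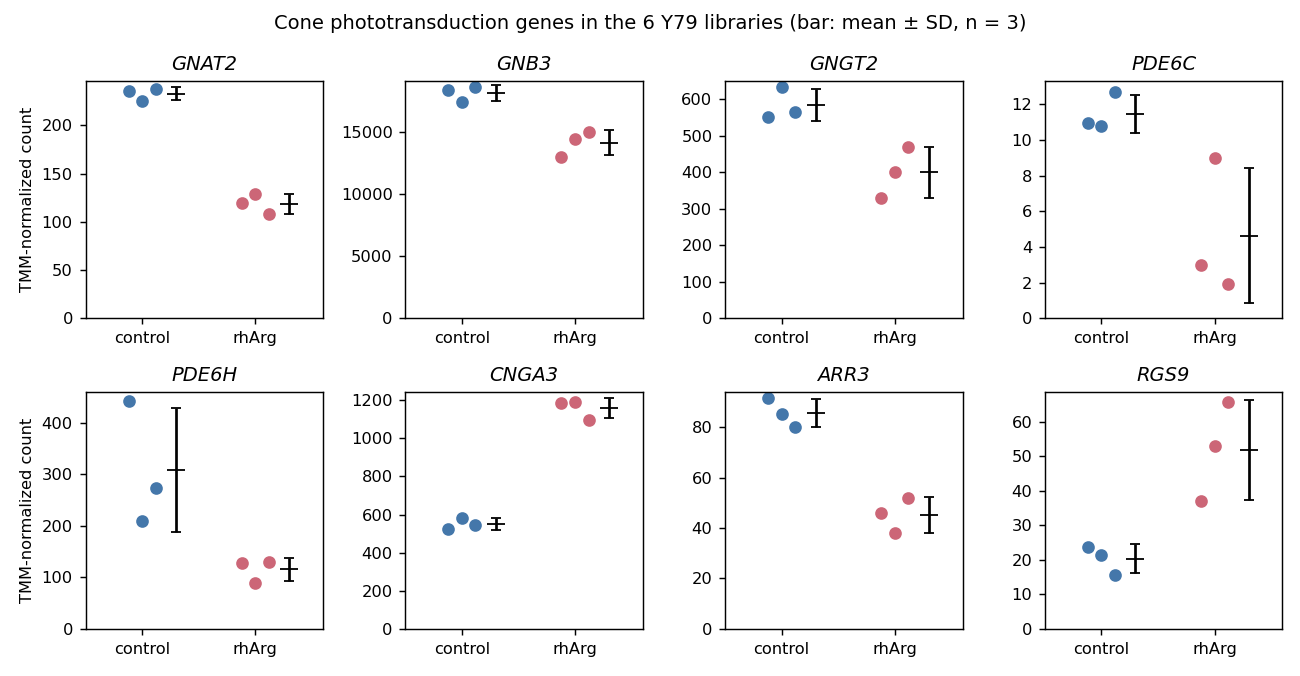
TMM-normalized counts (vertical axes, linear from 0) of 8 cone phototransduction genes in 3 control and 3 rhArg libraries of Y79 cells, 1 point per library, with the mean and SD (n = 3) beside each group. The rhArg points lie below the control points in 6 panels and above them for CNGA3 and RGS9, and the control points of PDE6H are spread from 209 to 443.

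The upstream sequences of 5 members are shown because they include the 4 that passed the fold limit and the opsin that had no counts. RefSeq windows of 250 bases before to 50 after a gene's start (GRCh38.p14) were searched for 7 of the 10 members (8 windows, since GNAT2 has a pair of starts). GNGT2 and GNB3 had no window, and CNGB3 was left out of this search. The 250 bases before the start are printed 5′ to 3′ on the gene's strand. Capitals mark the letters TAATCC or their reverse complement, the core of the sequence bound by the photoreceptor factors CRX and OTX2.
PDE6C (chr10:93612287-93612536, plus strand): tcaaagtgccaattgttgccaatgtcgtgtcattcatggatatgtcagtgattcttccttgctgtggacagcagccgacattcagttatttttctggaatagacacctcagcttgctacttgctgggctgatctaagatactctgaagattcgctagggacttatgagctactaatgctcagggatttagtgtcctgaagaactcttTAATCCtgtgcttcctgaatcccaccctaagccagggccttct
PDE6H (chr12:14972792-14973041, plus strand): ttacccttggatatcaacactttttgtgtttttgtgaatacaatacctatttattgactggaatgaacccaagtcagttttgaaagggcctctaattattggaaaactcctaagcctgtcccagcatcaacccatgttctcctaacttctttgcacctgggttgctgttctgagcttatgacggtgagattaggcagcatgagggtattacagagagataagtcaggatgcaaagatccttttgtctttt
OPN1SW (chr7:128775795-128776044, minus strand): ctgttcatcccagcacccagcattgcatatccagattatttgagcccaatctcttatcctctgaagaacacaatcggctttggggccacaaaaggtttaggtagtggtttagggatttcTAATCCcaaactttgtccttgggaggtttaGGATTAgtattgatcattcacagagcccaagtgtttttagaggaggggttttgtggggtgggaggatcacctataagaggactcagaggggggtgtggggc
CNGA3 (chr2:98346206-98346455, plus strand): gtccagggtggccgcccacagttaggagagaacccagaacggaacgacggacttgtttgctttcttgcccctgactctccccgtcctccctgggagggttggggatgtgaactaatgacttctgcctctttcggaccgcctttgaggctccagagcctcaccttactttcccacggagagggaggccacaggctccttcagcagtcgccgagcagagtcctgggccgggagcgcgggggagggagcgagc
RGS9 (chr17:65137120-65137369, plus strand): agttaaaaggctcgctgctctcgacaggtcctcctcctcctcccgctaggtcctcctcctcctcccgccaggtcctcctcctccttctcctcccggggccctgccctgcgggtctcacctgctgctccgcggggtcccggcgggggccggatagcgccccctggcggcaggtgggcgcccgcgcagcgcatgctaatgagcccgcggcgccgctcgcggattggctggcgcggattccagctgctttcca
TAATCC was searched on both strands of the whole window. It was present in 2 of the 7 members, PDE6C and OPN1SW, and in 6.36% of the 34943 windows of the table. In PDE6C its first base lay 43 bases before the start. OPN1SW held it 131 bases before the start on the gene's strand and 101 bases before it on the other strand, and this gene had no counts. The letters AGGTCA, the core of a nuclear receptor site, found in 13.8% of windows, and TGATGNAA, part of the element bound by ATF4 with C/EBP factors and found in 3.62%, were present in 1 member window each, both in GNAT2. These matches are descriptions of letters, not of binding. The windows of the members that rose were rich in G and C, at 64.7% for CNGA3 and 72.7% for RGS9, against a median of 58.7% over the table. Those of PDE6H, PDE6C, ARR3 and OPN1SW lay below it, at 42.7%, 45.3%, 47.3% and 44.7%. The pair of GNAT2 windows held 41.7% and 63.3%, so the lower genes did not share one composition.

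Levels per length were compared as transcripts-per-million values (TPM) computed from the counts and the table's gene lengths. GNB3, the cone transducin beta subunit, which is also made in other retinal cells, stood far above the other members, at 1770 ± 143 TPM in the controls (SD, n = 3) and 1459 ± 100.2 TPM under rhArg. It made up 83.0% ± 1.68 of the summed TPM of the 10 genes in the controls and 84.3% ± 0.72 under rhArg. In the controls PDE6H followed at 142 ± 56.4 TPM and GNGT2 at 115 ± 5.63 TPM, and the libraries of these neighbours overlapped. GNAT2 at 45.3 ± 3.34 TPM and CNGA3 at 42.3 ± 1.93 TPM also overlapped, and ARR3 was below both at 16.6 ± 0.99 TPM. PDE6C at 1.14 ± 0.16 TPM and RGS9 at 0.96 ± 0.17 TPM overlapped near 1 TPM, and CNGB3 at 0.115 ± 0.0024 TPM lay below them.

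Under rhArg the order below GNB3 was different. CNGA3 was next at 94.5 ± 4.31 TPM and overlapped with GNGT2 at 83.9 ± 14.6 TPM. PDE6H, at 56.5 ± 11.1 TPM, and GNAT2, at 24.5 ± 2.13 TPM, were each separate from their neighbours. ARR3 was at 9.34 ± 1.47 TPM and RGS9 at 2.60 ± 0.72 TPM, now above PDE6C at 0.49 ± 0.40 TPM, whose libraries overlapped with CNGB3 at 0.10 ± 0.13 TPM. The table's length counts every annotated exon of a gene, and exon use was not measured, so the level of a gene would be understated wherever long annotated exons are little used.

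**Figure D2:**
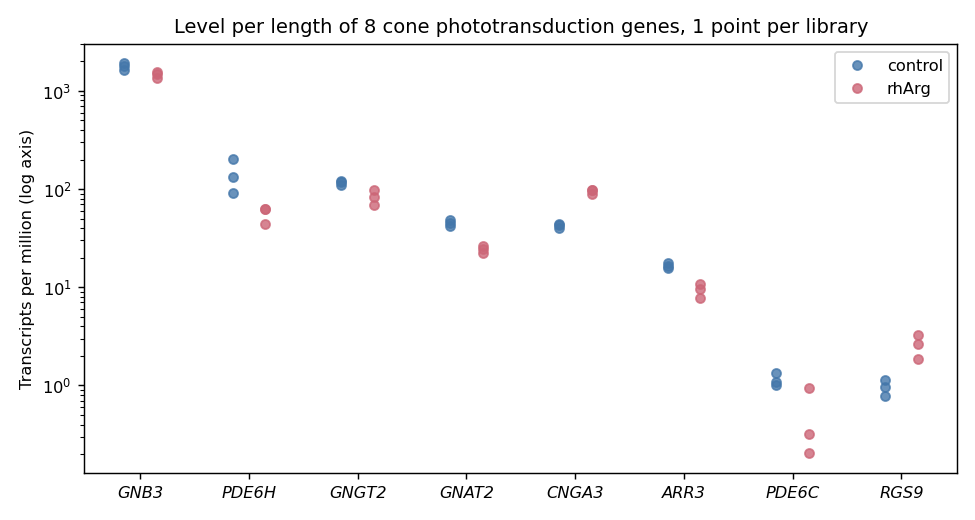
Level per length (transcripts-per-million, log axis) of 8 cone phototransduction genes, 1 point per library, in control and rhArg cells. GNB3 lies at 1348 or above in each library, and CNGA3 moves from the level of GNAT2 in the controls to that of GNGT2 under rhArg. CNGB3 and OPN1SW, with at most 4 and 0 counts a library, are not drawn.

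The opsin stood at the low end. OPN1SW, the short-wavelength cone opsin (chr7:128772485-128775794), had 0 counts in each library, and 3 counts, the number a count of 0 allows, correspond to 0.218 to 0.238 CPM (counts-per-million of the library). Intervals and limits of this kind cover counting error only. Its expression was therefore not detectable at this depth in either group. The long- and medium-wavelength opsins also had few counts. OPN1LW had 1 count in 1 control library and 3 in 1 rhArg library, and OPN1MW had 1 count in each control library and 0 under rhArg. Their sequences are near-identical, and reads that match both may go uncounted, so these counts set no limit on their level.

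The transducin alpha subunit GNAT2, which carries the GTP that is hydrolysed when the signal ends, had normalized counts of 235, 225 and 238 in the controls and 120, 129 and 108 under rhArg. The rhArg libraries were all lower, with no overlap. GNAT2 (chr1:109603091-109619929) fell by 0.97 on the log2 scale (SE 0.14, edgeR adjusted p = 1.95e-05). The gene shares 155 exon bases, 9.02% of its exon length, with AMPD2 on the opposite strand, and counting was without strand. AMPD2 itself fell by 1.07 (SE 0.11, edgeR adjusted p = 6.01e-07), and its part in the GNAT2 counts was not tested.

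GNB3 (chr12:6839954-6847393) had 18448, 17472 and 18693 normalized counts in the controls and 13031, 14446 and 14990 under rhArg. Each treated library lay below each control library, by a smaller factor than for GNAT2. The fall was 0.36 on the log2 scale (SE 0.09, edgeR adjusted p = 0.00223). CDCA3 on the opposite strand overlaps 16.0% of its exon bases and did not pass the test (log2 fold change -0.20, edgeR adjusted p = 0.142). The ratio of GNB3 to GNAT2 in TPM was 39.2, 38.8 and 39.3 in the controls and 54.4, 56.1 and 69.4 under rhArg. It was almost constant among the controls and higher in each treated library, and no test was run on it.

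GNGT2, the cone gamma subunit that anchors transducin to the membrane (chr17:49202791-49210574), had 552, 634 and 564 normalized counts in the controls and 329, 401 and 470 under rhArg. The spread among the treated libraries was wide, and the highest of them was still below the lowest control. GNGT2 fell by 0.54 on the log2 scale (SE 0.13, edgeR adjusted p = 0.00139). ABI3, which overlaps 7.76% of its exon bases on the opposite strand, had a log2 fold change of -0.47 that did not pass (edgeR adjusted p = 0.259).

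Of the cone-type PDE6 subunits, PDE6H gave the firmer result. PDE6H, the inhibitory gamma subunit (chr12:14973042-14981865), had 443, 209 and 273 normalized counts in the controls and 129, 89.8 and 129 under rhArg. The first control library was well above the other controls, and the treated libraries were all below the lowest control. PDE6H fell by 1.41 on the log2 scale (SE 0.23, edgeR adjusted p = 6.57e-05), and by 1.07 without that first control library (edgeR adjusted p = 6.22e-05).

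PDE6C, the catalytic subunit (chr10:93612537-93666010), was sparse, with raw counts of 11, 10 and 13 in the controls and 3, 9 and 2 under rhArg. The second rhArg library was close to the controls. The log2 fold change was -1.30 (SE 0.50, edgeR adjusted p = 0.0329). The gene passed the filter on low counts only through the controls, and a gene that passes in this way has to differ. DESeq2 gave an adjusted p of 0.162 over all genes with any count and 0.103 on the filtered genes, and leaving out any control library, or the first or the third rhArg library, gave edgeR adjusted p values from 0.0541 to 0.136. Without the second rhArg library the log2 fold change was -2.17 (edgeR adjusted p = 0.00512).

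Of the channel subunits, 1 of 2 could be tested. CNGA3, the subunit that forms the cone channel's pore (chr2:98346188-98398601), had 524, 583 and 546 normalized counts in the controls and 1184, 1193 and 1098 under rhArg. The libraries of each group lay close together, and the highest control was well below the lowest treated library. CNGA3 rose by 1.07 on the log2 scale (SE 0.10, edgeR adjusted p = 1.07e-07), and none of its exon bases lie in another annotated gene. CNGB3, the modulatory subunit that assembles with CNGA3 (chr8:86553977-86743675), had 2 counts in each control library and 4, 1 and 0 under rhArg. Its ratio of rhArg to control CPM was 0.81, with an exact 95% counting interval from 0.196 to 3.19, so neither a rise like that of CNGA3 nor a fall could be detected at this depth.

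ARR3, cone arrestin (chrX:70268305-70281840), had 91.4, 85.1 and 80.2 normalized counts in the controls and 45.9, 37.9 and 52.1 under rhArg. The controls lay within a narrow range above the treated libraries. ARR3 fell by 0.91 on the log2 scale (SE 0.20, edgeR adjusted p = 0.000753). PDZD11 on the opposite strand, which overlaps 16.3% of its exon bases, fell by 0.32 (edgeR adjusted p = 0.00967), and its part in the ARR3 counts was not tested.

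RGS9, the GTPase-accelerating protein that shortens the transducin signal in cones and rods (chr17:65100812-65227703), had 23.8, 21.5 and 15.6 normalized counts in the controls and 36.9, 52.9 and 65.6 under rhArg. The lowest treated library was above the highest control. RGS9 rose by 1.35 on the log2 scale (SE 0.28, edgeR adjusted p = 0.000571). RGS9 acts in a complex with the G protein beta subunit GNB5 and the membrane anchor RGS9BP, and both of these also rose. GNB5 had 265, 200.3 and 230 normalized counts in the controls and 496, 488 and 444 under rhArg, a log2 fold change of 1.04 (SE 0.12, edgeR adjusted p = 2.72e-06). RGS9BP, named here after its values were seen, had 74.5, 43.1 and 69.4 in the controls and 169, 136 and 133 under rhArg, a log2 fold change of 1.22 (SE 0.20, edgeR adjusted p = 8.19e-05). In neither gene did the groups overlap. Over all genes tested, 30.7% rose and the groups did not overlap for 66.5%, so these 2 rises alone do not set the complex apart. ANKRD27 on the opposite strand covers 30.6% of the exon bases of RGS9BP, and opposite-strand genes cover 9.25% of those of GNB5, and their part in these counts was not tested.

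Across the other genes that cones use, 22 were listed (other opsins, opsin kinases, guanylate cyclases and their activators, exchangers, chaperones and channels), and 12 of them could be tested. Of these 12, 8 rose and 0 fell by edgeR, with the 4 others not passing. At an unadjusted p under 0.05, the count of lower genes was also 0, and it was 0 by DESeq2. The median log2 fold change was 0.59, with 30.7% of the genes tested higher. CNNM4, a metal ion transporter, rose by 1.08 (SE 0.11, edgeR adjusted p = 4.23e-07). PDE6D, the prenyl-binding protein that carries PDE6 subunits to membranes, rose by 0.98 (SE 0.15, edgeR adjusted p = 2.64e-05). AIPL1, the chaperone that folds PDE6, was named after its values were seen, and it rose by 0.49 (SE 0.09, edgeR adjusted p = 0.000186) from 951 ± 39.4 to 1416 ± 29.4 TPM. In the libraries in which the PDE6 helpers PDE6D and AIPL1 were higher, the PDE6 subunits did not move together. PDE6H and the rod subunits PDE6A and PDE6G were lower, and the rod subunit PDE6B was higher. A relation between helpers and subunits was not tested.

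**Figure D3:**
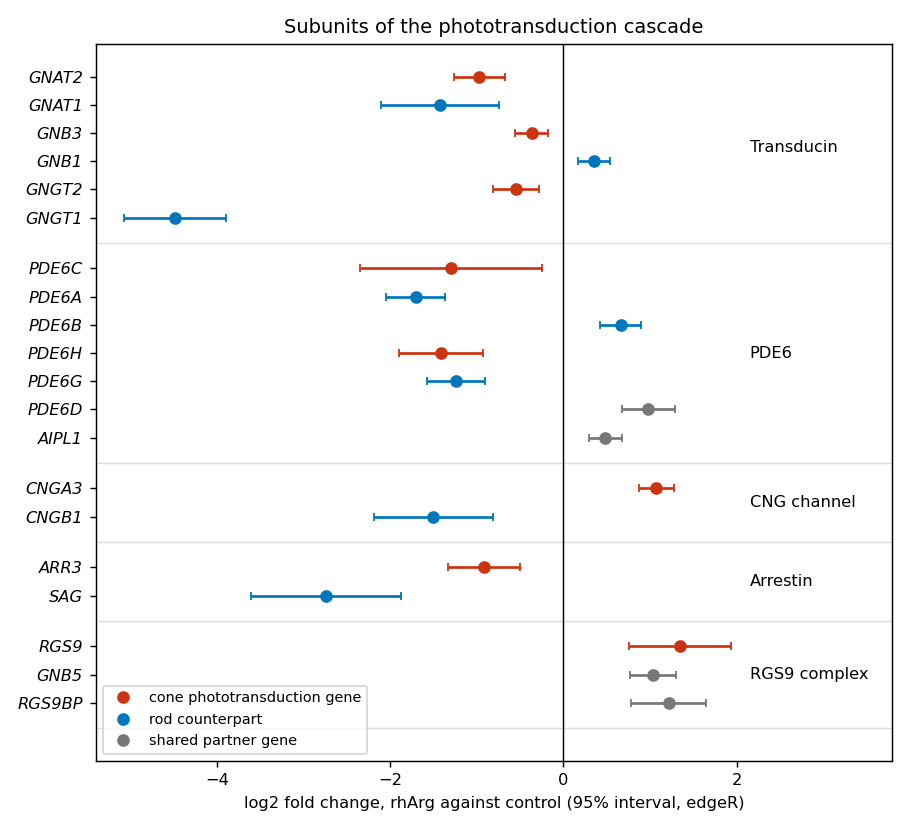
Log2 fold change of rhArg against control (horizontal axis, edgeR) with its 95% interval for subunits of the phototransduction cascade, grouped by protein complex. The cone genes of transducin, PDE6 and arrestin lie left of 0 and CNGA3 and RGS9 right of 0. The rod genes GNB1 and PDE6B and the partner genes PDE6D, AIPL1, GNB5 and RGS9BP also lie right of 0.

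Rod phototransduction uses a parallel set of subunits, of which 11 were listed and 9 could be tested. Of these 9, 2 rose and 6 fell, where 30.7% of the genes tested rose and 30.9% fell, with a median log2 fold change of -1.42. Of the 6, GNGT1, SAG, GNAT1 and CNGB1 passed the filter on low counts only through the controls, and such a gene has to differ. GNGT1, the rod transducin gamma subunit, had 113, 98.0 and 105 normalized counts in the controls and 5.98, 3.99 and 3.86 under rhArg. It fell by 4.48 on the log2 scale (SE 0.28, edgeR adjusted p = 1.98e-09), and its group under rhArg was at the edge of detection. SAG, rod arrestin, fell by 2.74 (SE 0.41, edgeR adjusted p = 2.69e-05), and PDE6A, a rod catalytic subunit, fell by 1.70 (SE 0.16, edgeR adjusted p = 1.87e-07). The members that rose were PDE6B, the other rod catalytic subunit, with 13.9% of its exon bases in an antisense gene, at 0.66 (SE 0.11, edgeR adjusted p = 8.65e-05), and GNB1, which most cells make, at 0.36 (SE 0.09, edgeR adjusted p = 0.00205).

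The cone gene was then set against its rod counterpart within each library, as the log2 ratio of counts per length, which does not depend on scaling between libraries. Of 10 pairs listed, 7 could be compared, since CNGA3 with CNGA1 and CNGB3 with CNGB1 each had a library with 0 counts and OPN1SW had none. With 3 libraries a group the two-sided exact permutation test cannot give a p below 0.1. The ratio of GNGT2 to GNGT1 was 2.91 ± 0.21 in the controls and 6.75 ± 0.57 under rhArg (log2, SD, n = 3, difference 3.84, exact p = 0.1). ARR3 to SAG was 4.44 ± 0.11 in the controls and 6.30 ± 1.06 under rhArg (difference 1.87, exact p = 0.1). In both pairs the groups did not overlap, and the rod gene, at 2 to 7 counts a library under rhArg, was lower by more than the cone gene.

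The ratio moved the other way where the rod gene rose. GNB3 to GNB1 was 2.83 ± 0.05 in the controls and 2.10 ± 0.05 under rhArg (log2, SD, n = 3, difference -0.72, exact p = 0.1). PDE6C to PDE6B was -4.48 ± 0.24 and -6.61 ± 0.88 (difference -2.13, exact p = 0.1). Neither pair overlapped between groups, and the adjusted p over the 7 pairs was 0.175 for each of the 4 pairs at the smallest p. Of these 4 pairs, all but GNB3 to GNB1 held PDE6C, GNGT1 or SAG. Each of those genes passed the filter on low counts only through the controls, and such a gene has to differ. The groups overlapped for GNAT2 to GNAT1 (difference 0.45, exact p = 0.3), PDE6H to PDE6G (difference -0.13, exact p = 0.6) and PDE6C to PDE6A (difference 0.20, exact p = 0.9). No difference was detectable in these 3 ratios at this spread between libraries. In both groups the cone form was the more abundant per length for transducin and arrestin, and PDE6C was far below both rod catalytic subunits. The annotated length of SAG, 11885 bases against 1719 for ARR3, widens the arrestin ratio in both groups. In raw counts ARR3 was still the higher, at 92, 79 and 82 against 29, 23 and 28 for SAG in the controls.

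**Figure D4:**
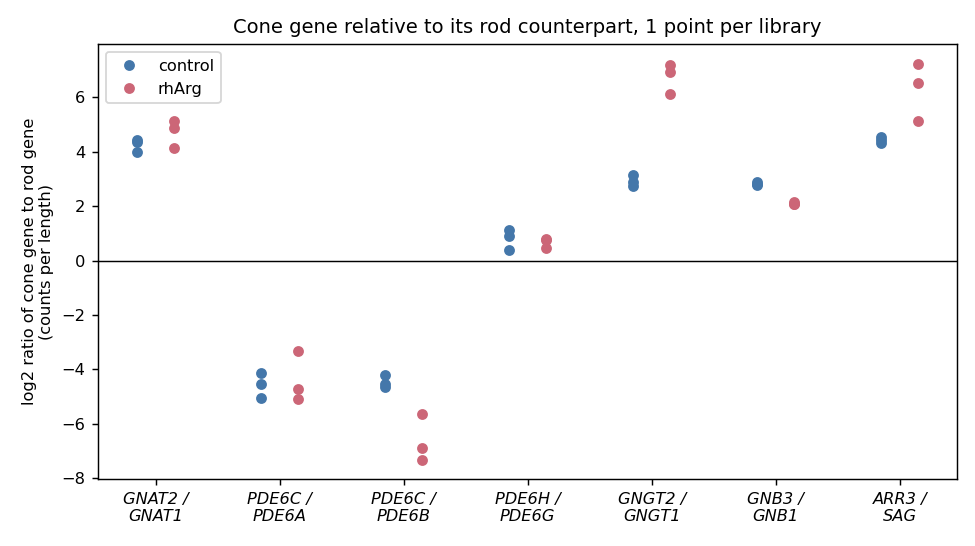
Log2 ratio of counts per length of a cone gene to its rod counterpart (vertical axis) for 7 pairs, 1 point per library, in control and rhArg cells. The ratio is higher in each rhArg library for GNGT2 / GNGT1 and ARR3 / SAG, lower in each for GNB3 / GNB1 and PDE6C / PDE6B, and overlaps between groups for the other pairs.

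Transcription factors that act in photoreceptor precursors were listed to describe the cells, 21 in all, of which 18 could be tested. Of these, 5 rose and 7 fell, a share near the 61.7% of all genes tested that passed in either direction, so the counts are no result about these factors. Their median log2 fold change was 0.07. RORB rose by 1.57 (edgeR adjusted p = 2.10e-08), CRX, which drives photoreceptor genes, by 0.62 (edgeR adjusted p = 2.27e-05), PRDM1 by 1.11 (edgeR adjusted p = 2.91e-05) and TBX2 by 1.43 (edgeR adjusted p = 0.000275). NRL, which directs rod fate, fell by 1.44 (edgeR adjusted p = 1.30e-08), NR2F1 fell by 3.01 (edgeR adjusted p = 3.93e-08), NEUROD1 by 0.87 (edgeR adjusted p = 7.83e-07) and RXRG, a nuclear receptor of cone precursors, by 1.18 (edgeR adjusted p = 1.23e-06). CRX stood at 252 ± 11.6 TPM in the controls and 412 ± 3.46 TPM under rhArg. OTX2, named with CRX for the letters TAATCC, fell by 0.42 (edgeR adjusted p = 0.000492), from 2282 ± 130 to 1811 ± 31.3 TPM.

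Markers of other retinal cells were also present and moved between the groups. The summed TPM of the 7 amacrine and horizontal cell markers was 49.2 to 54.6 in the controls and 204 to 221 under rhArg, most of it from SLC6A9, with GAD2 and LHX1 at 0. SLC6A9 rose by 2.55 on the log2 scale, PROX1 fell by 1.09, TFAP2A fell by 1.19 and GAD1 did not pass. The 5 ganglion cell markers, led by THY1, summed to 92.8 to 97.6 and 124 to 128 TPM. THY1 rose by 1.26 on the log2 scale, while POU4F1 fell by 1.28 and POU4F2 by 1.96, so the sum follows THY1 and not the list. The 5 pigment epithelium markers, led by BEST1, summed to 0.152 to 0.711 and 5.84 to 6.34 TPM, with TYR at 0. Mean TPM in the controls and under rhArg was 0.103 and 4.93 for BEST1 and 0 and 0.90 for MLANA. It was 0.13 and 0.16 for RPE65 and 0.10 and 0.05 for TTR, so the sum follows BEST1 and not the list. FTH1 on the opposite strand covers 14.6% of the exon bases of BEST1, and its part was not tested.

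The 6 Müller glia markers, led by GLUL, summed to 159 to 185 TPM in the controls and 144 to 156 TPM under rhArg, with RLBP1, AQP4 and SOX9 at 0. GLUL fell by 0.31 on the log2 scale, while SLC1A3, at a far lower level, rose by 3.75. The 5 bipolar cell markers, led by GRM6, summed to 79.8 to 107 and 90.0 to 104 TPM, and these groups overlapped. Of the marker genes tested, 1 of 2 Müller, 1 of 2 bipolar, 1 of 3 ganglion, 1 of 4 amacrine and horizontal and 1 of 1 pigment epithelium markers rose. Of the same genes, 1 Müller, 2 ganglion and 2 amacrine and horizontal markers fell. Over all genes tested, 30.7% rose and 30.9% fell. BEST1 passed the filter on low counts only through the rhArg libraries and TFAP2A only through the controls, and such a gene has to differ. The part of such markers in the cone gene results was not tested. In these bulk libraries fewer cells that express a cone gene and less of its RNA per cell cannot be told apart.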

How the data were processed

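RNA of 3 control and 3 rhArg libraries was measured, and group and replicate were taken from the labels. The authors used SOAPnuke for read filtering, HISAT2 for alignment (hg38) and featureCounts for counting per gene. For SOAPnuke and HISAT2 the version is not given in the sources used. Raw counts were deposited. The file header names featureCounts 2.0.1 and Ensembl GRCh38 release 112 and sets neither strand nor an overlap option. Counting was therefore without strand. By default featureCounts assigns a read that overlaps exons of several genes to none of them, so bases shared between genes can lower a count. Of 63140 gene IDs, 62541 were matched to a symbol, and where IDs shared a symbol the one with most counts kept it.

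Counts were tested in R 4.3.3 with edgeR 4.0.16 (filterByExpr with a minimum count of 10, TMM, glmQLFit, glmQLFTest, condition as the only term), with Benjamini-Hochberg adjustment over 15221 genes. TMM factors lay between 0.975 and 1.02 and the common dispersion was 0.0110. TMM centres the changes, which hides any global shift. A normalized count is scaled to the mean effective library size. TPM was computed here from the counts and the length column. Cone to rod ratios used a pseudocount of 0.5 and an exact permutation test over the 20 assignments of 6 libraries (SciPy 1.17.1). Replicates of a group differed by more than counting noise (chi-square per degree of freedom from 3.91 to 18.2). The script was checked on simulated counts. Alternatives were DESeq2 1.42.0, other scalings and filters, the replicate number as a block, glmTreat and each library left out.

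The members and lists were chosen with earlier results of these data known. Named genes were the 10 members, the rod counterparts, up to 4 higher and 4 lower genes with the smallest adjusted p of the support and factor lists, and markers at 0 or with the highest level. Other genes were named where a result turned on them. Protein sequences were not used here. Some genes of the lists that meet this rule are not reported here.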

Additional observations from a re-analysis of the deposited data

How the results depend on the processing

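Under the other scalings (RLE, upper-quartile and library totals), DESeq2, other filters, the replicate block and each library left out, ARR3, GNAT2, PDE6H, GNGT2, GNB3, CNGA3 and RGS9 kept their direction and their call in all 14 of these alternatives. PDE6C kept its direction and lost its call in 8 of its alternatives, glmTreat included, and could not be tested with the stricter filter. Of all values recomputed, 299 kept their side of the threshold or stayed within their limits, 15 kept only their direction, 10 counts moved and 0 called values changed sign. The 299 include the cone to rod differences without length scaling and by replicate number, which equal the main differences by construction and check nothing. The cause of these moves was not tested unless named.

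The count of cone genes lower by more than 1 on the log2 scale, 2 in the main analysis, was 1 with DESeq2 over all genes, 1 with DESeq2 on the filtered genes, 1 with the stricter filter, which tested fewer genes, and 0 with glmTreat. It ranged from 1 to 3 when libraries were left out in turn, with 1 without control replicate 1, control replicate 3 or rhArg replicate 1 and 3 without rhArg replicate 2. The count of cone genes higher by that limit, 2, was 0 with glmTreat. The count of lower cone support genes, 0, was 1 without a filter on low counts and ranged from 0 to 1 when libraries were left out, with 1 without rhArg replicate 3.

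Replicate numbers did not pair the libraries (correlations of same-numbered deviations -0.078, 0.059 and 0.0040). With the replicate block, 2 cone genes rose and 6 fell, as without it. The counts of the other lists were equal with and without the block, and whether the same genes made them up was not compared. No cone to rod ratio could pass a threshold of 0.05 in any setting, since the smallest exact p is 0.1 with all libraries and 0.2 with a library left out. For PDE6C to PDE6A and PDE6H to PDE6G, leaving out 1 library changed the sign of a difference that had not passed. Depth limits CNGB3, OPN1SW and PDE6C, and a group of 3 libraries limits each ratio test.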
